A study of Rattus norvegicus with 4 samples.

Results

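miR-181a-5p and miR-181b-5p, the main products of the miR-181a and miR-181b hairpins, were followed at the level of single tags in rat aortic vascular smooth muscle cells exposed to angiotensin II (Ang II). They are 2 of 410 mature rat microRNAs (miRNAs) in the RefSeq sequences used here that had reads. A tag is a distinct read sequence, and a tag was counted for a miRNA when its first 18 nt equalled those of the mature sequence. This gave 2512 tags out of 2397853 over the 4 libraries, 1268 of miR-181a-5p and 1244 of miR-181b-5p. The pair was selected on its own read levels, which were lower 1 h and 3 h after Ang II than in the control in these same libraries, so the ratios over control below describe the choice and do not test it.

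The cells were vascular smooth muscle cells from the aorta of Sprague-Dawley rats, and all groups had been kept without serum for 48 h. The groups were untreated cells (control) and cells given 100 nM Ang II for 1 h, 3 h or 24 h, with 1 small RNA library each. No comparison therefore has a replicate check, no test of conditions was possible, and every interval covers counting error only. Reads copied by PCR are not independent molecules. The labels give no time for the control and no untreated cells for each time, so an effect of Ang II cannot be told apart from one of time in culture.

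Ang II, the effector peptide of the renin-angiotensin system, binds the AT1 receptor of smooth muscle cells and is known there for contractile, growth and inflammatory responses. A miRNA is cut from a hairpin precursor, and 1 strand, often the 5p arm as in the miR-181 family, is loaded into an Argonaute protein and guides it to messenger RNAs through the seed near its 5′ end. The miR-181 family is known from work on immune cells and the vessel wall, where miR-181b is known to target importin-α3 in endothelial cells and thereby to restrain NF-κB signalling.

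The mature sequences of the 4 family members that share a seed are shown because the seed sets which targets they can pair with, and because the bases beyond it decide which tag was given to which miRNA. They are RefSeq sequences (build GRCr8), with the seed, bases 2 to 8, in capitals.
miR-181a-5p: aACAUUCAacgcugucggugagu
miR-181b-5p: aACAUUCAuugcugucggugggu
miR-181c-5p: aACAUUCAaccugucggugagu
miR-181d-5p: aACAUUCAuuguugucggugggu
Counted from the 5′ end, miR-181b-5p differs from miR-181a-5p by A9U, C10U and A21G. miR-181d-5p differs from miR-181b-5p by C12U alone. The first 18 nt therefore separate all 4 members. No other mature miRNA among the 692 distinct RefSeq sequences carries the seed ACAUUCA.

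Each member is encoded by a pair of genes, 1 in each of 2 clusters. On chromosome 13, Mir181a-1 (chr13:52037067-52037166, plus strand) lies 61 nt before Mir181b1 (chr13:52037228-52037337), both within the span of LOC108352541. On chromosome 3, Mir181a2 (chr3:43025563-43025679, plus strand) lies 986 nt before Mir181b2 (chr3:43026666-43026753), within the spans of Nr6a1 and LOC120101539. Mir181c (chr19:40888291-40888396) and Mir181d (chr19:40888474-40888556) form another cluster with a gap of 77 nt. Reads of a 5p arm cannot be assigned to one of its genes, whereas the 3p arms of Mir181a-1 and Mir181a2 have different sequences and can be told apart.

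The libraries held 14395539 reads that name a sequence in the control, 13119417 after 1 h, 14370167 after 3 h and 14534892 after 24 h. Mature miRNAs took 68.4% of these reads in the control, 72.8% after 1 h, 74.4% after 3 h and 71.9% after 24 h. The cell label was checked on miRNAs. The 4 smooth muscle markers, both arms of miR-143 and of miR-145, summed to between 251047 and 312678 RPM (reads scaled to 1000000 reads in each library) in the 4 libraries, and all 4 had reads. Nearly all of this sum was miR-143-3p, with 248197 RPM in the control. There miR-145-5p held 2275 RPM, miR-143-5p 335 RPM and miR-145-3p 240 RPM. The 2 endothelial markers, both arms of miR-126a, summed to 104.9 to 125 RPM. Of 5 blood and immune cell markers, 4 were in the sequence set, 2 of them (miR-142-5p and miR-223-3p) had no reads, and the sum was 0.457 to 0.757 RPM. Epithelial markers (3 of 6 in the set) summed to 3.55 to 6.403 RPM, striated muscle markers (7 of 7, 3 of them at 0) to 99.8 to 124 RPM, nearly all of it miR-1-3p, and neuronal markers (3 of 4) to 67.8 to 87.0 RPM.

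miR-181a-5p had 40371 reads in the control, 25418 after 1 h, 21508 after 3 h and 37797 after 24 h. Scaled to RPM this was 2804 RPM in the control, 1937 RPM at 1 h, 1497 RPM at 3 h and 2600 RPM at 24 h. The level was thus highest in the control, lowest at 3 h and close to the control at 24 h, and the rank of miR-181a-5p among all miRNAs by level was 19 in the control, 27 after 1 h, 33 after 3 h and 21 after 24 h. In such bulk libraries, fewer cells of a type and less RNA per cell cannot be told apart. The ratio over control was 0.691 at 1 h (95% interval 0.680 to 0.702), 0.534 at 3 h (0.525 to 0.543) and 0.927 at 24 h (0.914 to 0.9404).

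miR-181b-5p had 18688 reads in the control, 11445 after 1 h, 10575 after 3 h and 13692 after 24 h. This was 1298 RPM in the control, 872 RPM at 1 h, 736 RPM at 3 h and 942 RPM at 24 h. All 3 Ang II libraries lay below the control, with 3 h again the lowest. The ratio over control was 0.672 at 1 h (0.656 to 0.688), 0.567 at 3 h (0.553 to 0.581) and 0.726 at 24 h (0.710 to 0.742).

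**Figure D1:**
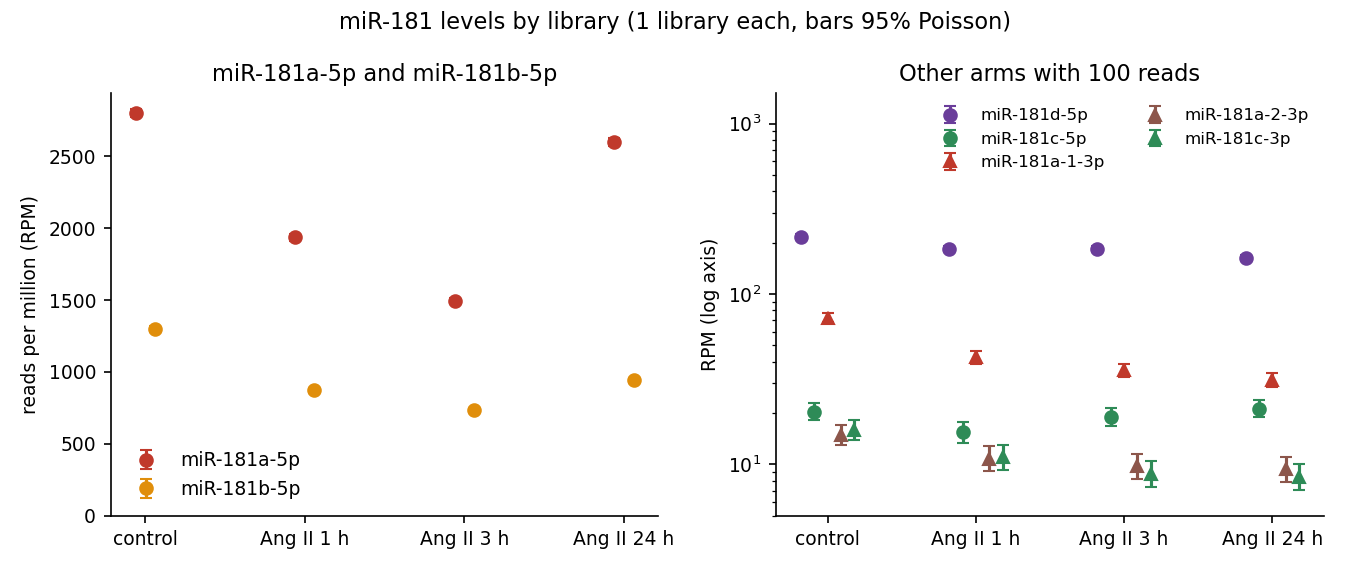
Levels in RPM of miR-181a-5p and miR-181b-5p (left, linear axis from 0) and of the 5 other miR-181 arms with 100 reads (right, log axis) in each of the 4 libraries; points are single libraries and bars are exact 95% Poisson intervals. miR-181a-5p stood at 1497 RPM at 3 h and 2600 RPM at 24 h, whereas miR-181a-1-3p stood at 35.8 RPM at 3 h and 31.4 RPM at 24 h (log2 ratio -0.18, but 0.016 with TMM factors).

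A miRNA was called lower or higher when log2((RPM + 1)/(RPM + 1)) passed 1.5-fold and the higher library had at least 100 reads. Under this limit both members were called lower at 3 h, where 8 of 176 miRNAs (4.55%) were, and the 2 ranked 3 and 4 from the lowest ratio. Since this contrast chose the members, the share is given as background only. Neither was called at 1 h, where 4 of 174 miRNAs (2.30%) were called lower. Their log2 ratios at 1 h, -0.53 for miR-181a-5p and -0.57 for miR-181b-5p, lay just short of the limit and ranked 8 and 6 from the lowest. Scaled to miRNA reads in place of all reads, these became -0.62 and -0.66 and both were called. At 24 h neither was called, where 30 of 178 miRNAs (16.9%) were called lower.

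The nearest miRNAs to the limit at 3 h are given as values. Inside it was miR-365-5p, with a log2 ratio of -0.59, and just outside it miR-1843b-5p, with -0.58. The median log2 ratio of all miRNAs over the limit of 100 reads was -0.09 after 1 h, -0.06 after 3 h and -0.25 after 24 h. Another scaling shifts all ratios of a time together, by the same amount before the pseudocount of 1 RPM, which makes the shift smaller for rare miRNAs. Before the pseudocount this shift was -0.09, -0.12 and -0.07 at 1 h, 3 h and 24 h for miRNA reads, 0.10, 0.08 and 0.29 for TMM factors, and 0.10, 0.05 and 0.26 for median-of-ratios factors. With TMM factors 3 miRNAs were lower and 7 higher at 1 h, 6 lower and 12 higher at 3 h, and 6 lower and 16 higher at 24 h, against 4 and 4 (2.30% each), 8 and 7 (3.98% higher), and 30 and 9 (5.06% higher) in RPM. Scaled to miRNA reads, 9 were lower and 3 higher at 1 h, 15 lower and 5 higher at 3 h, and 45 lower and 9 higher at 24 h. Both members were called lower at 3 h under all 4 scalings.

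**Figure D2:**
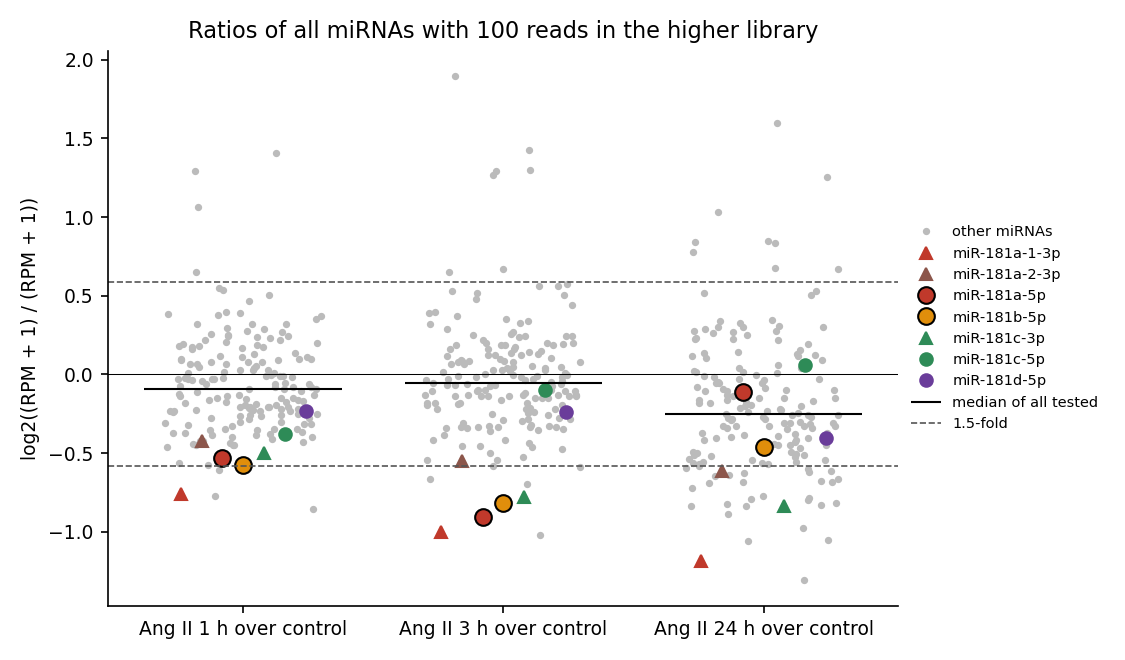
The log2 ratio of RPM over control for every miRNA with 100 reads in the higher library (174 after 1 h, 176 after 3 h and 178 after 24 h), with miR-181 arms as large symbols, the median of all as a solid line and 1.5-fold as dashed lines. miR-181a-5p and miR-181b-5p lie just above the lower dashed line at 1 h, below it at 3 h (-0.91 and -0.82), and at -0.11 and -0.46 at 24 h.

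The members parted between 3 h and 24 h. miR-181a-5p at 24 h was 1.74 times its 3 h level (1.71 to 1.77) and was called higher, as were 6 of 173 miRNAs (3.47%) in this comparison; it ranked 170 of 173 from the lowest. miR-181b-5p at 24 h was 1.28 times its 3 h level (1.25 to 1.31) and was not called, and its log2 ratio of 0.36 compares with a median of -0.19. The call for miR-181a-5p and the lack of one for miR-181b-5p were the same under the 3 other scalings. The 3 h library is shared with the comparison that chose the members, so these ratios are a description. At 3 h the levels were below those at 1 h, at 0.773 times the 1 h level for miR-181a-5p (0.759 to 0.787) and 0.844 times for miR-181b-5p (0.821 to 0.866), and neither was called; no miRNA of 170 (0%) was called lower and 2 (1.18%) higher.

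The reads of miR-181a-5p per read of miR-181b-5p, which do not depend on scaling, were 2.16 in the control, 2.22 after 1 h, 2.03 after 3 h and 2.76 after 24 h. The first 3 libraries lay close together and the 24 h library stood apart. At 24 h miR-181a-5p was 69.8% of the reads of the seed family and miR-181b-5p 25.3%, against 64.6% and 29.9% in the control. All 4 family members together held 4339 RPM in the control, 3008 RPM at 1 h, 2434 RPM at 3 h and 3726 RPM at 24 h. Whether miR-181a-5p at 24 h lay below or above the control depended on the scaling, with a log2 ratio of -0.11 in RPM and -0.18 scaled to miRNA reads, but 0.18 with TMM factors and 0.15 with median-of-ratios factors. miR-181b-5p at 24 h stayed below the control under each, between -0.53 and -0.18.

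miR-181d-5p, 1 base from miR-181b-5p, was nearer to the control than the pair at 1 h and 3 h. It held 216 RPM in the control, 183 RPM at 1 h, 183 RPM at 3 h and 163 RPM at 24 h, and was called at no time. Its ratio over control was 0.849 at 1 h (0.805 to 0.896), 0.848 at 3 h (0.804 to 0.893) and 0.753 at 24 h (0.714 to 0.795). At 1 h and at 3 h this interval did not meet that of miR-181b-5p, whereas at 24 h both overlapped. miR-181c-5p, the rarest 5p arm, held 20.4 RPM in the control, 15.4 RPM at 1 h, 18.9 RPM at 3 h and 21.3 RPM at 24 h. Its ratio was 0.756 at 1 h (0.629 to 0.908), 0.930 at 3 h (0.786 to 1.10) and 1.04 at 24 h (0.887 to 1.23), so at 3 h and 24 h no difference from the control was detectable at this depth.

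The 3p arms are the strands of the same hairpins that are less often kept. They are shown because they separate the miR-181a genes, with bases 2 to 8 in capitals.
miR-181a-1-3p: aCCAUCGAccguugauuguacc
miR-181a-2-3p: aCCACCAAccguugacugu
miR-181c-3p: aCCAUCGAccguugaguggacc
miR-181a-1-3p, from the chromosome 13 cluster, had 1047 reads in the control, 557 after 1 h, 514 after 3 h and 456 after 24 h. The level at 24 h over that at 3 h had a log2 ratio of -0.18 in RPM and -0.14 scaled to miRNA reads, but 0.016 with TMM factors and 0.017 with median-of-ratios factors, so whether 24 h was the lowest depended on the scaling. Its ratio over control was 0.584 at 1 h (0.526 to 0.648), 0.492 at 3 h (0.442 to 0.547) and 0.431 at 24 h (0.386 to 0.482), and it was called lower at all 3 times under all 4 scalings. It ranked 3 from the lowest ratio at 1 h, 2 at 3 h and 2 at 24 h. miR-181a-2-3p, from the chromosome 3 cluster, had 214 reads in the control, 142 after 1 h, 141 after 3 h and 136 after 24 h, and the intervals of the 3 Ang II libraries overlapped. It was called lower at 24 h alone (ratio 0.629, 0.504 to 0.784), a call that was lost with TMM and median-of-ratios factors (log2 ratios -0.35 and -0.38), and it was called at 3 h too when scaled to miRNA reads (-0.68).

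miR-181c-3p, which shares the seed of miR-181a-1-3p, had 229 reads in the control, 144 after 1 h, 127 after 3 h and 123 after 24 h. It was called lower at 3 h (ratio 0.556, 0.444 to 0.693) and at 24 h (0.532, 0.424 to 0.665), while miR-181c-5p of the same hairpin was not. The 24 h call was lost with TMM factors (-0.58), and scaled to miRNA reads it was called at 1 h as well (-0.59). miR-181b-1-3p had 42 reads in the control, 29 after 1 h, 32 after 3 h and 28 after 24 h, too few for the limit of 100. miR-181d-3p had no reads in any library; the upper end of the exact Poisson interval was 0.281 RPM in the shallowest. Of the 8 arms listed beside the members, 7 were in the sequence set and 5 had 100 reads. In RPM, 1 of those 5 was called lower at 1 h, 2 at 3 h and 3 at 24 h, against 2.30%, 4.55% and 16.9% of all miRNAs. None of the 5 was called higher. Their median log2 ratio was -0.42 at 1 h, -0.55 at 3 h and -0.62 at 24 h, against -0.09, -0.06 and -0.25 over all miRNAs. With TMM factors miR-181a-2-3p and miR-181c-3p were not called at 24 h, and 6 of 178 miRNAs were lower. The 3p arms of the miR-181a hairpins share their hairpins with a chosen member, so this tally is not independent of the choice.

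A share of one arm against the other within a library does not depend on scaling. Per 1000 reads of miR-181a-5p there were 25.9 reads of miR-181a-1-3p in the control (24.4 to 27.6), 21.9 at 1 h (20.1 to 23.8), 23.9 at 3 h (21.9 to 26.1) and 12.1 at 24 h (11.0 to 13.2). The 24 h interval lay below the other 3. For miR-181a-2-3p the values were 5.30 in the control (4.61 to 6.06), 5.59 at 1 h (4.70 to 6.59), 6.56 at 3 h (5.52 to 7.74) and 3.60 at 24 h (3.02 to 4.26), and again the 24 h library was the lowest. miR-181a-5p reads come from both genes, so each share has the same denominator.

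Across all 45 hairpins with both arms measured, the log2 change of the 3p per 5p ratio at 24 h had a median of -0.05 and ran from -1.10 to 1.12. Mir181a-1 had the lowest of the 45 at -1.10, Mir181c the next at -0.97 and Mir181a2 ranked 7 at -0.56. At 1 h and 3 h Mir181a-1 was within the bulk, at -0.24 (rank 16) and -0.12 (rank 22). Mir181c ranked 3 from the lowest at 3 h, at -0.74. For miR-181b-1-3p the value was 2.25 per 1000 reads of miR-181b-5p in the control (1.62 to 3.04) and 2.04 at 24 h (1.36 to 2.96), and no difference was detectable at this depth.

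**Figure D3:**
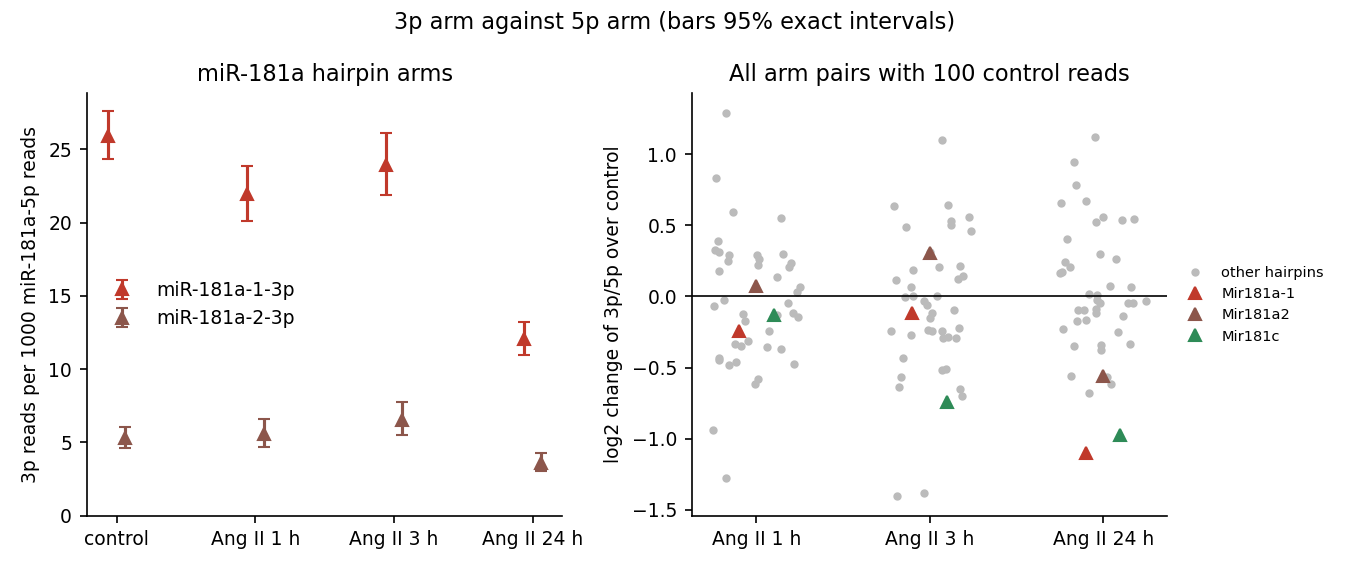
Left, reads of each miR-181a 3p arm per 1000 reads of miR-181a-5p in each library, with exact 95% intervals; right, the log2 change of the 3p to 5p ratio over control for 45 hairpins with both arms measured. miR-181a-1-3p stood at 12.1 per 1000 at 24 h, against 25.9 in the control, and Mir181a-1 and Mir181c were the lowest of the 45 hairpins at 24 h.

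Single tags were then compared, since a sum can hide tags that go different ways. Tags 1, 2, 3 and 5 of the 8 most read tags of each member are shown in the DNA letters of the reads. Bases that differ from the mature sequence, or lie past its end, are in capitals.
miR-181a-5p tag 1: aacattcaacgctgtcggtgagt
miR-181a-5p tag 2: aacattcaacgctgtcggGgagt
miR-181a-5p tag 3: aacattcaacgctgtcggtga
miR-181a-5p tag 5: aacattcaacgctgtcggtgGgt
miR-181b-5p tag 1: aacattcattgctgtcggtgg
miR-181b-5p tag 2: aacattcattgctgtcggGgg
miR-181b-5p tag 3: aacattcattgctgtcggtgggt
miR-181b-5p tag 5: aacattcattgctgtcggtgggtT
The tag with the whole mature sequence of miR-181a-5p (tag 1) had 14622 reads in the control, 9588 after 1 h, 8541 after 3 h and 15282 after 24 h. It made up 36.2% of the miRNA's reads in the control and 40.4% at 24 h, and its ratio over control was 0.720 after 1 h, 0.585 after 3 h and 1.04 after 24 h. Tag 3, which ends 2 nt earlier, had 2310 reads in the control, 1504 after 1 h, 1611 after 3 h and 2902 after 24 h, and was the shortest of the 8 most read tags together with its T19G form. At 3 h the ratios over control of the 8 most read tags of miR-181a-5p ran from 0.335 (tag 8, with T19G and T23G) to 0.699 (tag 3).

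For miR-181b-5p the mature sequence was only the third most read tag. It had 1383 reads in the control, 842 after 1 h, 827 after 3 h and 1248 after 24 h, between 7.36% and 9.11% of the miRNA's reads. The most read tag, 2 nt shorter, had 2439 reads in the control, 1441 after 1 h, 1458 after 3 h and 2188 after 24 h. Tag 5, which carries 1 T past the mature end, had 1251 reads in the control, 825 after 1 h, 714 after 3 h and 739 after 24 h. The mature tag was at 0.894 times the control at 24 h and tag 5 at 0.585 times, so the 24 h level differed among the tags of 1 miRNA.

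Over the tags with at least 100 reads in the higher library, all 37 of miR-181a-5p and all 19 of miR-181b-5p lay below the control at 1 h and at 3 h; with TMM factors 36 and 18 did at 1 h, and all 37 and 19 at 3 h. Tags of 1 miRNA share their source and are not replicates. These tags make up the sums on which the members were chosen, so their counts at 1 h and 3 h describe that choice. The control was the higher library for all of them at 1 h and 3 h, so they met the limit of 100 reads through the control. Of single tags in the whole data set, 17.1% of 4527 passed 1.5-fold lower at 1 h, 23.3% of 4636 at 3 h and 23.5% of 4939 at 24 h. For miR-181a-5p 15 of 37 tags were called lower at 1 h, 31 of 37 at 3 h and 5 of 38 at 24 h. For miR-181b-5p 6 of 19 were called lower at 1 h, 15 of 19 at 3 h and 5 of 20 at 24 h. None of either was called higher, which 4.79%, 5.67% and 13.2% of all single tags were at 1 h, 3 h and 24 h. At 24 h 14 of 38 tags of miR-181a-5p and 2 of 20 of miR-181b-5p were at or above the control. With TMM factors 11 tags of miR-181a-5p and 3 of miR-181b-5p were called lower at 1 h, 26 and 15 at 3 h and 5 and 3 at 24 h, and 5 and 1 were called higher at 24 h. Scaled to miRNA reads, 18 and 11 were called lower at 1 h, 33 and 18 at 3 h and 7 and 6 at 24 h. The shares of all single tags were counted in RPM alone. The tag counts under the other scalings therefore have no background and show only how the calls move.

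Tag length varied more in miR-181b-5p than in miR-181a-5p. Tags of 23 nt, the mature length, held 73.5% of miR-181a-5p reads in the control, with 10.4% at 21 nt, 5.001% at 22 nt, 4.63% at 24 nt and 3.14% at 25 nt. In miR-181b-5p the control reads were spread over 21 nt (25.7%), 22 nt (13.96%), 23 nt (26.9%) and 24 nt (23.4%). At 3 h the 22 nt tags had the lowest ratio of the lengths with at least 0.5% of reads in both miRNAs, with ratios over control of 0.391 for miR-181a-5p (0.360 to 0.425) and 0.453 for miR-181b-5p (0.422 to 0.485). The 23 nt tags stood at 0.514 and 0.566 at 3 h. Tags of 18 nt, which had few reads, were not below the control at 3 h. For miR-181a-5p they had 35 reads in the control and 40 at 3 h (2.43 and 2.78 RPM). For miR-181b-5p they had 69 and 84 (4.79 and 5.85 RPM).

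At 24 h the ratio was lower for tags of 24 nt and 25 nt than for tags of 21 nt to 23 nt. For miR-181a-5p it was 1.14 at 21 nt (1.10 to 1.19), 0.972 at 22 nt (0.913 to 1.03), 0.931 at 23 nt (0.916 to 0.946), 0.727 at 24 nt (0.677 to 0.779) and 0.459 at 25 nt (0.415 to 0.506). For miR-181b-5p it was 0.838 at 21 nt (0.803 to 0.874), 0.800 at 22 nt (0.755 to 0.847), 0.778 at 23 nt (0.746 to 0.811) and 0.503 at 24 nt (0.477 to 0.529), and then 0.673 at 25 nt (0.582 to 0.777). The 24 h ratios of the longer tags were below those of the mature length in both miRNAs.

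**Figure D4:**
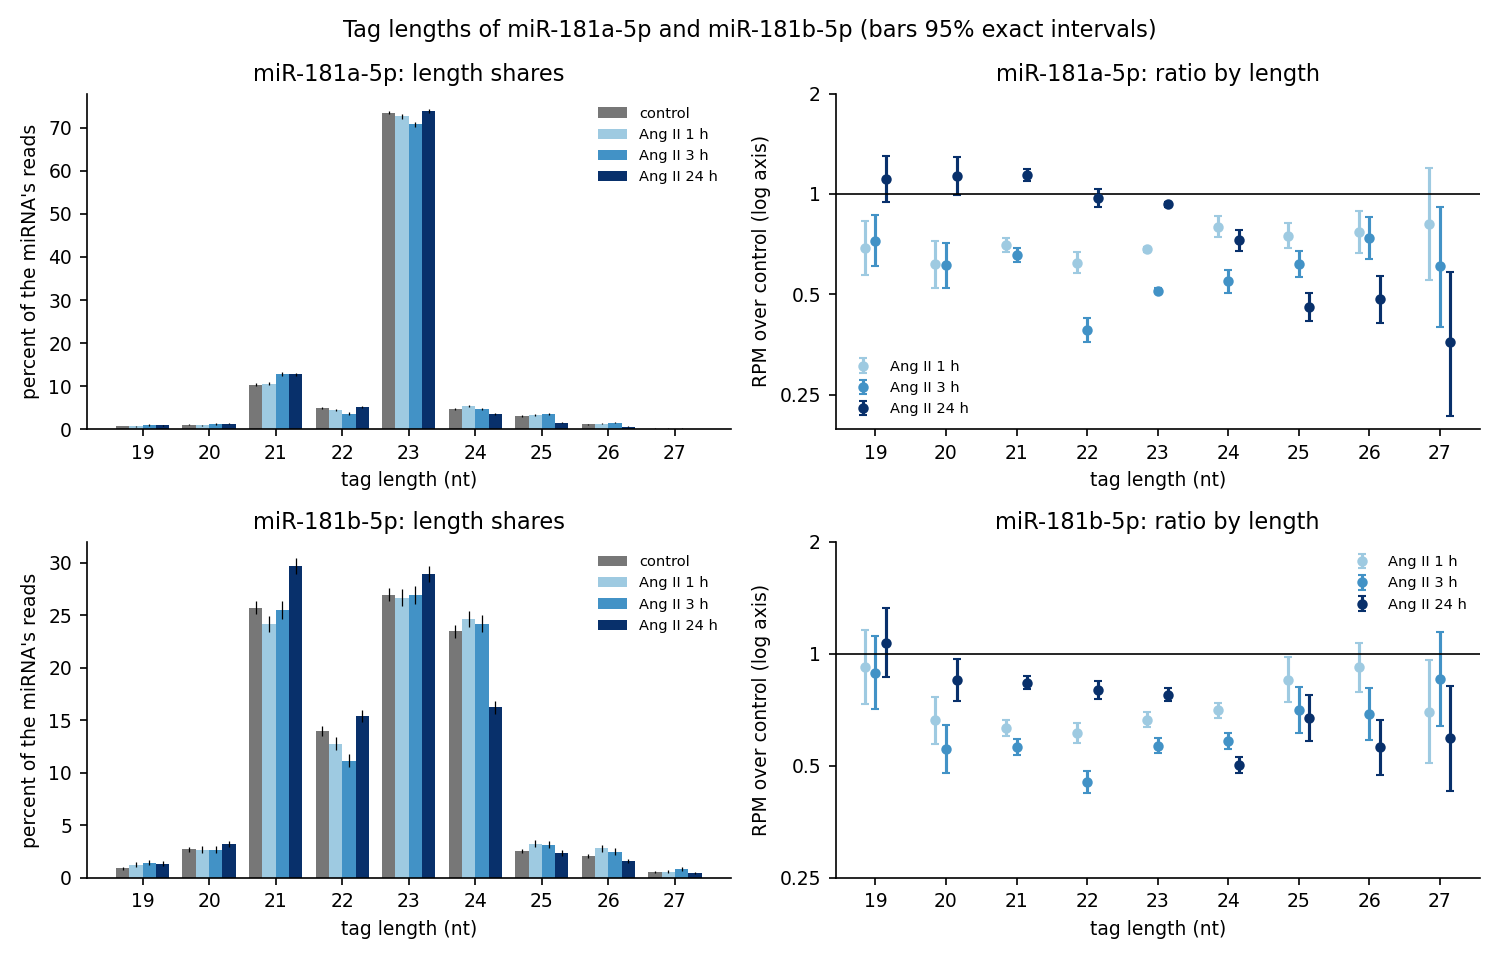
Left, the percent of each miRNA's reads by tag length in each library; right, the ratio of RPM over control for each length (log axis), with exact 95% intervals in all panels, miR-181a-5p above and miR-181b-5p below. At 24 h the 21 nt tags stood at 1.14 times the control for miR-181a-5p and 0.838 times for miR-181b-5p, and the longer tags lay lower, at 0.459 for 25 nt tags of miR-181a-5p and 0.503 for 24 nt tags of miR-181b-5p.

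Tags longer than the mature sequence held 9.24% of miR-181a-5p reads in the control, 10.5% after 1 h, 10.4% after 3 h and 5.95% after 24 h. For miR-181b-5p they held 29.4% in the control, 32.1% after 1 h, 31.6% after 3 h and 21.2% after 24 h. In both, the 24 h library was the lowest and its interval lay below the others. The change at 24 h against the control was -3.29 percentage points for miR-181a-5p and -8.18 for miR-181b-5p. Of 88 miRNAs with enough reads for this share, 71 had a lower share at 24 h, with a median change of -0.88 points, and the pair ranked 14 and 3 from the lowest.

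Most of the longer reads carried only T past the mature end, between 80.7% and 90.1% of them for miR-181a-5p and between 82.1% and 85.2% for miR-181b-5p. On the hairpins of Mir181a2 and Mir181b2, the mature sequence is followed by uuggga and uugaau. Up to 2 such T can thus be copied from these genes, and T beyond these cannot; the hairpins of Mir181a-1 and Mir181b1 were not analysed here. Tags with 3 or more T past the end held 0.897% of miR-181a-5p reads in the control, 1.09% after 1 h, 1.40% after 3 h and 0.487% after 24 h. Tags with exactly 1 T held 21.5% of miR-181b-5p reads in the control, 22.9% after 1 h, 22.7% after 3 h and 14.7% after 24 h. The classes with 1 T, 2 T and 3 or more T all had a lower share at 24 h than in the control in both miRNAs. For miR-181b-5p the intervals overlapped for 2 T, at 1.65% in the control (1.47 to 1.84) and 1.54% at 24 h (1.34 to 1.76). They also overlapped there for 3 or more T, at 1.51% (1.34 to 1.70) and 1.19% (1.02 to 1.39).

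A base other than the mature one stood at position 19 in many reads of both miRNAs, and position 19 was not the only such site. Of control reads that reach position 23, T23G made up 13.97% for miR-181a-5p and 45.9% for miR-181b-5p. Of control reads of miR-181a-5p that reach position 21, A21G made up 11.3%. The comparison with other miRNAs below was made for position 19 alone. Reads with T19G made up 28.3% of miR-181a-5p in the control, 27.9% after 1 h, 25.8% after 3 h and 23.2% after 24 h. For miR-181b-5p they made up 42.8% in the control, 42.2% after 1 h, 41.6% after 3 h and 39.2% after 24 h. Among 88 miRNAs, the share of control reads with another base at position 19 was the highest for miR-181b-5p and the second highest for miR-181a-5p, and the other 86 had a median of 0.494% and a maximum of 12.99%, which was miR-181d-5p. The ratio over control at 3 h was 0.487 for T19G reads of miR-181a-5p (0.471 to 0.503), against 0.552 for its reads with the mature base (0.541 to 0.563); for miR-181b-5p these were 0.552 (0.532 to 0.572) and 0.576 (0.558 to 0.595). Both kinds of read were thus below the control at 3 h. They are parts of the sums on which the members were chosen, so these ratios describe that choice. Where the G at positions 19, 21 and 23 comes from was not tested.

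The miRNAs with the most similar course were ranked by the root mean square difference of their 3 log2 ratios over control, among 173 compared. All ratios use the same control library, and shared function or control was not examined. The members were chosen together for lower levels at 1 h and 3 h, so their nearness to each other in part describes that choice. For miR-181a-5p the nearest was miR-181b-5p (0.211), then miR-1843b-5p (0.225), miR-99b-3p (0.295), miR-125a-5p (0.299) and miR-664-2-5p (0.302), against a median of 0.591. For miR-181b-5p the nearest was miR-99b-3p (0.134), then miR-365-5p (0.170), miR-1843b-5p (0.180), miR-181a-2-3p (0.196) and miR-181a-5p (0.211), against a median of 0.555. miR-99b-3p had log2 ratios of -0.40 after 1 h, -0.70 after 3 h and -0.56 after 24 h.

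The other miRNAs at the low end differed by time. At 1 h the lowest were miR-338-5p (117 reads in the control), miR-3559-3p, miR-181a-1-3p, miR-34c-3p and miR-1839-3p, with log2 ratios of -0.86 to -0.58. At 3 h they were miR-3559-3p (-1.02), miR-181a-1-3p, miR-181a-5p, miR-181b-5p and miR-181c-3p (-0.78), so 4 of the 5 lowest were miR-181 arms. This contrast chose miR-181a-5p and miR-181b-5p, so their place here describes that choice. At 24 h the lowest were miR-503-5p (-1.31), miR-181a-1-3p, miR-99a-3p, miR-421-3p and miR-877 (-0.98). At the high end stood miR-129-5p, miR-21-3p, miR-221-5p, miR-27a-5p and miR-31a-3p at 1 h, miR-222-5p, miR-129-5p, miR-132-3p, miR-21-3p and miR-221-5p at 3 h, and miR-129-2-3p, miR-132-3p, miR-129-5p, miR-182 and miR-664-3p at 24 h. Their log2 ratios ran from 0.55 to 1.41 at 1 h, from 1.27 to 1.90 at 3 h and from 0.84 to 1.60 at 24 h.

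Other lists with a known role near these cells are given as counts. Of 10 miRNAs linked to NF-κB signalling in the vessel wall, all with 100 reads, none was called at 1 h or 3 h and 1 was lower at 24 h, miR-92a-3p, which has been linked to endothelial inflammation (1681 reads at 24 h and 2679 in the control, log2 ratio -0.68); this call was lost with TMM factors (-0.40). Of all miRNAs 2.30% were called lower and 2.30% higher at 1 h, and 4.55% lower and 3.98% higher at 3 h. None of 10 is near this background. At 24 h 16.9% were called lower, so 1 of 10 is no more than the background. Their median log2 ratio was -0.04 after 1 h, -0.09 after 3 h and 0.07 after 24 h. Of 12 miRNAs linked to smooth muscle phenotype, 11 had 100 reads, none was called at 1 h, and 1 was higher at 3 h and at 24 h. That was miR-29b-3p, a known regulator of collagens and other matrix genes, with 1733 reads in the control, 2066 after 1 h, 2764 after 3 h and 2810 after 24 h; its 3 h call was lost when scaled to miRNA reads (0.55). Of all miRNAs 3.98% were called higher at 3 h and 5.06% at 24 h, and 1 of 11 is near this background. Their median was 0.18 after 1 h, 0.09 after 3 h and 0.13 after 24 h. Of 4 CREB-linked miRNAs only miR-132-3p had 100 reads, and it was higher at 3 h (1.30) and 24 h (1.26). The shares of all miRNAs called higher were 3.98% at 3 h and 5.06% at 24 h, and a single miRNA gives no share to set against them.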

How the data were processed

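The labels' protocols describe small RNA libraries from 0.5 µg of total RNA, 12 PCR cycles, selection of 17 to 52 nt and sequencing on a Genome Analyzer IIx. Each deposited file lists distinct sequences with their raw read counts, not normalized. Novoalign and the build rn4 are named in the submitters' processing notes, without a role; trimming and filtering are not given in the sources used here. A row that names no sequence (5.13% to 7.07% of a file's reads) was left out.

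Tags were matched by their first 18 nt to RefSeq rat mature miRNAs (GRCr8); a tie went to the longest common start or was shared equally. This set is not complete. RPM is scaled to 1000000 reads naming a sequence. Intervals at 95% are exact: Poisson for counts, Clopper-Pearson for shares and conditional binomial for ratios. Arm pairs needed 100 control reads of each arm, and shares by length or base 1000 reads in each library. The matching and the call rule were first tested on simulated data.

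Named are the members, all miR-181 arms, the mature tag and some of the 8 most read tags of each member, the 5 lowest and 5 highest miRNAs at each time and the 5 nearest to each member. The members and all lists were chosen with earlier results of these data known. Alternatives were other scalings, matching, tag filters, pseudocounts and limits; 2 of them, tags matching at every base and tags no longer than the mature sequence, were chosen after seeing the data. Tools were R 4.3.3 with edgeR 4.0.16 (TMM factors) and DESeq2 1.42.0 (median-of-ratios factors), and Python 3.11.15 with scipy 1.17.1, numpy 2.4.6, matplotlib 3.10.9 and pandas 2.3.3.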

Additional observations from a re-analysis of the deposited data

How the results depend on the processing

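No paired analysis was possible because each group has 1 library, and for the same reason no replicate could be left out. Of 15 alternatives, 14 kept the 3 h call of each member, and the 2-fold limit ended it for both; the lowest and highest log2 ratios at 3 h were -1.03 and -0.74 for miR-181a-5p and -0.94 and -0.73 for miR-181b-5p. At 1 h miR-181a-5p was called lower with 1 alternative and miR-181b-5p with 4: miRNA reads, tags of 20 to 25 nt, tags no longer than the mature sequence, and leaving out tags read once. At 24 h neither was called under any of the 15, and miR-181a-5p was above the control in 5. Fewer reads per tag class limit the rarer arms most, and with 1 library per group no setting shows how much libraries of one group differ. The cause was not tested for any of the moves below, apart from the scalings, which shift the ratios of a time together, and the stricter limits, which pass fewer miRNAs by construction.

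For miR-181a-5p the log2 ratios at 1 h, 3 h and 24 h were -0.62, -1.03 and -0.18 scaled to miRNA reads, -0.44, -0.82 and 0.18 with TMM factors and -0.43, -0.86 and 0.15 with median-of-ratios factors. They were -0.49, -0.83 and 0.0012 when 20 nt had to match, -0.47, -0.77 and 0.050 for the mature sequence alone, -0.58, -0.99 and -0.14 for tags of 20 to 25 nt, and -0.47, -0.74 and 0.058 for tags matching the mature sequence or a hairpin at every base. Tags no longer than the mature sequence gave -0.058 at 24 h.

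For miR-181b-5p the same 3 scalings gave -0.66, -0.94 and -0.53, then -0.48, -0.74 and -0.18, then -0.47, -0.77 and -0.21. Matching 20 nt gave -0.53, -0.78 and -0.37. The mature sequence alone gave -0.73 at 3 h and -0.16 at 24 h, and tags matching at every base gave -0.75 and -0.27. Tags of 20 to 25 nt gave -0.64 at 1 h and -0.92 at 3 h, and tags no longer than the mature sequence gave -0.63, -0.86 and -0.30.

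The number of miRNAs called lower at 1 h, 4 as reported, was 9 scaled to miRNA reads, 2 for mature sequences alone, 7 for tags of 20 to 25 nt, 1 with a pseudocount of 10 RPM, 0 at a 2-fold limit and 1 with a minimum of 500 reads. The number higher at 1 h, 4 as reported, was 7 with TMM and 7 with median-of-ratios factors, 8 with a minimum of 20 reads and 13 with none. At 3 h the number lower, 8 as reported, was 15 scaled to miRNA reads, 4 with a pseudocount of 10 RPM, 2 at a 2-fold limit and 13 with no minimum. The number higher at 3 h, 7 as reported, was 12 with TMM factors, 4 for tags no longer than the mature sequence, and 13 with a minimum of 20 reads or with none. At 24 h the number lower, 30 as reported, was 45 scaled to miRNA reads, 6 with TMM and 10 with median-of-ratios factors, 17 for mature sequences alone, 13 with a pseudocount of 10 RPM, 4 at a 2-fold limit and 15 with a minimum of 500 reads. The number higher at 24 h, 9 as reported, was 16 with TMM factors, 3 at a 2-fold limit and 5 with a minimum of 500 reads.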

Other observations

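Some reads near the members lie outside the rule that counted them. Tags that start 1 or 2 nt before or after the mature start of miR-181a-5p had 338 reads in the control, 238 after 1 h, 136 after 3 h and 260 after 24 h, under 1% of the miRNA's own reads. For miR-181b-5p there were 208, 114, 103 and 141 such reads in the same order. Tags with 1 mismatch in the first 18 nt were more frequent, with 2554 reads in the control, 1448 after 1 h, 1307 after 3 h and 2473 after 24 h for miR-181a-5p and 1201, 671, 638 and 945 for miR-181b-5p. Both kinds had the fewest reads at 3 h. Tags with 1 mismatch stayed at 5.70% to 6.54% of the miRNA's own reads for miR-181a-5p and 5.86% to 6.90% for miR-181b-5p. Their course thus followed the sums on which the members were chosen and is no separate check of them. Whether they are misread copies of the counted tags was not tested.

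A few long tags of miR-181a-5p hold the start of another miRNA. Among tags of 36 nt or more, those with the first 15 nt of a RefSeq miRNA after position 18 had 1 read in the control, 3 after 1 h, 8 after 3 h and 4 after 24 h. Of these 16 reads, 15 were joined to miR-21-5p, the second most read miRNA here, and 1 to miR-143-3p, the most read. miR-181b-5p had none.

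In miR-181a-5p the tag with A21G held between 2.81% and 3.43% of reads, and the G at position 21 is also the base that separates miR-181b-5p from miR-181a-5p there. Its ratio over control was 0.710 after 1 h, 0.481 after 3 h and 1.02 after 24 h.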
